A study of Rattus norvegicus with 23 samples.

Results

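miR-140 and miR-455 are a pair of microRNAs (miRs) best known from cartilage, and their levels were followed here in rat muscle-derived stem cells (MDSC), none of which had been turned into cartilage cells. The rule took every entry named miR-140 or miR-455, with any arm or none, and found 4 of the 792 entries counted: rno-miR-140-3p, rno-miR-140-5p, rno-miR-455-3p and rno-miR-455-5p, where rno stands for Rattus norvegicus. They were chosen by their measured reads in all 23 libraries, so the levels and ratios below are a description, and no test was made on them. The intervals given are 95% intervals for counting error alone, since nearly every condition was a single library.

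A miR hairpin is cut from a longer transcript and then opened into a 5p and a 3p arm, either of which can be loaded onto an Argonaute protein and guide it to messenger RNAs through its seed, bases 2 to 8 from the 5′ end. In mouse and human, miR-140 lies in an intron of Wwp2, which codes for a ubiquitin ligase, is switched on with Sox9 in cartilage, and is required there for normal growth of the skeleton. miR-455 lies in an intron of the collagen gene Col27a1, is likewise abundant in chondrocytes, and has in addition been linked in mouse to the formation of brown fat cells. The label chondrogenic comes from this background, since no cartilage gene was measured in these libraries.

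The study compared small RNA of MDSC grown with or without rat serum, lipids or the carriers of the lipids. Its libraries fall by name into 3 sets, called here the male, serum and lipid run. That each set was a separate sequencing run was taken from the names and was not stated. The male run held ED-MDSC and LD-MDSC with all their treatments, and the serum run held ND-MDSC beside the female lines. The female cells came from pelvic floor muscle of rats 12 weeks old, ZF4-SC from the obese strain (Zucker Fatty, which carries the leptin receptor mutation Lepr fa) and ZL4-SC from the non-obese Zucker Lean strain. They were isolated as Sca1-/CD34+/CD45-/CD11b-/CD31- cells. The male cells were labelled as quadriceps MDSC of early diabetes (ED-MDSC, Zucker Fatty rats of 12 weeks), late diabetes (LD-MDSC, the same strain at 32 weeks) and a non-diabetic group (ND-MDSC, for which no age or strain was given). The study's methods describe the earlier male MDSC as Sca1+/CD34+ cells of the gastrocnemius. Serum was added at 5% for 4 days, as OZ serum from obese rats or LZ serum from non-obese rats, from older females of the same strains for the female cells and from males of 32 weeks for ED-MDSC. The donors of the OZ serum added to ND-MDSC were not given. The study's methods list fetal bovine serum in the culture medium of the female cells. Cells called untreated or without serum below are therefore those without added rat serum. Palmitate at 1 or 0.5 mM was set against albumin, its carrier, and cholesterol at 100 or 50 mg/dl against cyclodextrin, which carries it into the medium. The dose of cholesterol in ED-MDSC was not given. Each stem cell was a single line, and sex, muscle, isolation and, where given, serum donors change together between the female and the male lines and cannot be told apart.

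RefSeq held mature sequences for 3 of the 4 arms, which are shown because each arm reads targets through its own seed. The sequences are in RNA letters, 5′ to 3′, with the seed in capitals, and lie on the plus strand of the rat assembly GRCr8 at chr19:52375353-52375373 (miR-140-3p), chr19:52375314-52375335 (miR-140-5p) and chr5:81704881-81704902 (miR-455-3p).
miR-140-3p: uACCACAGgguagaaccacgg
miR-140-5p: cAGUGGUUuuacccuaugguag
miR-455-3p: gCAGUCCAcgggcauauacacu
Each of the 3 seeds was carried by 1 of the 724 mature rat entries, which was the arm itself, so these 3 arms shared no seed with each other or with any other rat miR of that table. miR-455-5p is not in the table, so its seed was not compared.

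The hairpins show how the arms sit in their precursors, with the annotated mature arms in capitals. Mir140, 99 bases at chr19:52375293-52375391, lies within the span of the protein-coding gene Wwp2, and Mir455, 78 bases at chr5:81704834-81704911, within that of Col27a1. Whether the place is an intron in the rat was not read from the tables used here.
Mir140: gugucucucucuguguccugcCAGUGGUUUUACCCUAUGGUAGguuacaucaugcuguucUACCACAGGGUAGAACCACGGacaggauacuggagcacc
Mir455: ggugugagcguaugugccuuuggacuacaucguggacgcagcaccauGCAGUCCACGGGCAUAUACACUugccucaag
miR-455-5p is the 5p arm of this second hairpin.

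Depth set how well each arm was measured. Libraries of the serum run were the deepest, with 6492161 to 13271580 miR reads each. Those of the male run had 1701574 to 3840523, and those of the lipid run 104902 (palmitate at 1 mM) to 4783062. Levels below are reads per 10000000 miR reads of the library. Of the 23 libraries, the untreated ZF4-SC (serum and lipid run) and ZF4-SC with cyclodextrin (lipid run) were the only conditions with a second library. These duplicates differed by up to 1.62-fold in miR-140-3p and up to 2.22-fold in miR-455-3p, and these largest gaps serve below as the measured spread. When the libraries were scaled by TMM (trimmed mean of M values), which sets aside the most extreme miRs, the gaps were 1.34-fold and 1.95-fold, and a ratio with TMM is read against these. Of 24 ratios, those larger than the spread numbered 8 for miR-455-3p and 7 with TMM, 4 of them in both, and 4 and 9 for miR-140-3p, with 1 in both. The untreated ZF4-SC pair had 35.8% of all miRs past 2-fold and the cyclodextrin pair 23.6%, counted, as in every such share below, over the miRs that averaged 100 reads or more in the libraries of the comparison. Striated muscle miRs were nearly absent, with 5 of 7 entries above 0, miR-133a-3p and miR-133b-3p at 0, and sums of 0 to 112 per library. The 8 blood cell miRs summed to no more than 2245 in any library of the serum run (200.5 at the lowest). Their sums were 3649.6 to 99609 among male run libraries and 3270.3 to 457221 among lipid run libraries. The 2 endothelial miRs summed to 223 to 3858 and the 6 epithelial miRs to 0 to 174.

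miR-140-3p was by far the most abundant of the 4 arms. It was read 88841 times in all and ranked between 35 and 61 among the 792 entries in every library. Its level ran from 2839 in ZF4-SC with albumin, through a median of 7654, to 23477 in ED-MDSC with OZ serum, a range of 8.27-fold. miR-455-3p, with 6210 reads, ranked between 82 and 177 and ranged from 166 in untreated ZL4-SC, through a median of 504, to 2859.9 in ED-MDSC with cholesterol, 17.2-fold. The minor arms were rarer: miR-455-5p had 978 reads and a highest level of 558, and miR-140-5p had 567 reads and a highest level of 112. Since miR-140-5p stayed under a mean of 100 reads in every comparison, its ratios carry wide intervals and it is counted in none.

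**Figure D1:**
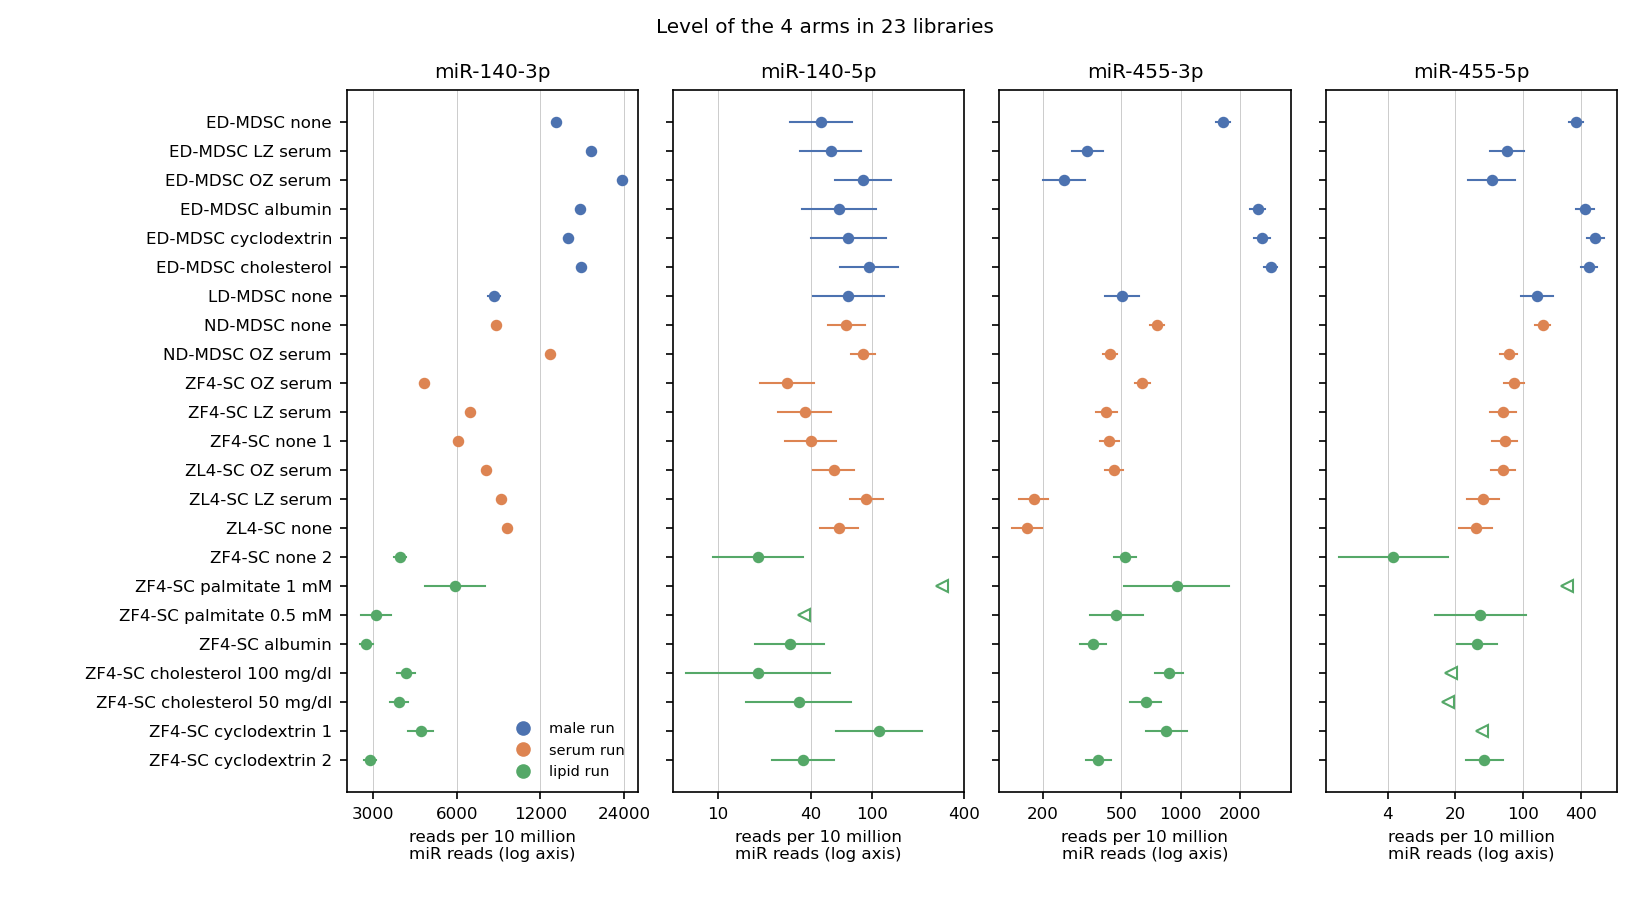
Level of each arm in each of the 23 libraries, as reads per 10000000 miR reads on log axes that differ between panels. Points are single libraries coloured by run, lines are 95% counting intervals, and open triangles mark libraries with 0 reads at the level that 3 reads would have. miR-140-3p lay lowest in the ZF4-SC of the lipid run, and miR-455-3p and miR-455-5p were low in ED-MDSC with either serum and high in the 4 ED-MDSC libraries without it.

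Among the untreated stem cells, both 3p arms were highest in ED-MDSC. miR-140-3p stood at 13628 in ED-MDSC, 9080.5 in ZL4-SC, 8275 in ND-MDSC, 8149 in LD-MDSC, and 6070.4 and 3749 in the ZF4-SC of the serum and lipid runs. No step between neighbours in the order of ED-MDSC, ZL4-SC, ND-MDSC, LD-MDSC and the ZF4-SC of the serum run exceeded 1.50-fold, and so none exceeded the spread of the duplicates, but the ends of the order, ED-MDSC and the ZF4-SC of the serum run, differed by 2.25-fold (2.60 with TMM), which did. miR-455-3p stood at 1638 in ED-MDSC, 759.5 in ND-MDSC, 504 in LD-MDSC, 434 and 521 in the ZF4-SC of the serum and lipid runs and 166 in ZL4-SC. In the order of ED-MDSC, ND-MDSC, LD-MDSC, the ZF4-SC of the serum run and ZL4-SC, the last step, 2.61-fold, was the only one of the 4 larger than the spread, and the first, 2.16-fold, was just within it.

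With the stage of diabetes, both arms of miR-455 were lower in the later cells. LD-MDSC had 0.308 times the miR-455-3p of ED-MDSC (95% interval 0.245 to 0.383), from 93 and 629 reads, and 0.404 times the miR-455-5p (0.255 to 0.618), at levels of 141 and 349. miR-140-3p was lower as well, at 0.598 times (0.564 to 0.633), just past the spread of its duplicates. With TMM these ratios of the 3p arms were 0.306 and 0.595, both past the spread. In the same comparison 36.8% of all miRs were past 2-fold, 36 of them lower in LD-MDSC and 13 higher of 133, and miR-455-3p was the 15th from the lowest. The blood cell miRs moved between the same libraries, from 4846 in ED-MDSC to 15518 in LD-MDSC, and their part in the result was not tested. Cells of 12 and 32 weeks were 1 library each, so age, stage and line cannot be told apart.

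Between the female strains, the arms parted. Untreated ZF4-SC had 2.61 times the miR-455-3p of ZL4-SC (2.11 to 3.25) but 0.669 times the miR-140-3p (0.643 to 0.695). miR-455-5p followed its partner arm with 64.7 against 32.5, 1.99 times (1.19 to 3.41). Of all miRs 37.3% were past 2-fold, 48 higher and 9 lower in ZF4-SC, and the median miR was itself 1.54 times higher in ZF4-SC. With TMM the median moved from 0.63 to -0.43 on the log2 scale and the split to 12 higher and 35 lower. The ratio of miR-455-3p was then 1.26 and that of miR-140-3p 0.321. With this scaling the difference in miR-455-3p between the strains was under 2-fold and within the spread of the duplicates, while that in miR-140-3p was past both. With the ZF4-SC library of the lipid run in its place, the ratios to ZL4-SC on reads per total were 3.13 and 0.413.

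ND-MDSC, the male line of the serum run, had more miR-455-3p than either female line, 1.75 times that of ZF4-SC (1.51 to 2.02) and 4.57 times that of ZL4-SC (3.77 to 5.58), beside backgrounds of 38.8% and 59.0% of all miRs past 2-fold. Against ED-MDSC, the male line of the other run, it had 0.464 times the level (0.413 to 0.520), with 38.8% past 2-fold, which was just within the spread of the duplicates. That ratio was 0.573 with TMM, 0.722 with median-of-ratios and 0.917 with no rescaling, so under each of these it was no longer past 2-fold. The ratio to ZF4-SC went from 1.75 to 2.51 with TMM, past 2-fold and past the spread, and that to ZL4-SC to 3.15. miR-140-3p of ND-MDSC was 1.36, 0.911 and 0.607 times that of ZF4-SC, ZL4-SC and ED-MDSC, and 1.95, 0.627 and 0.751 times with TMM. Against the ZF4-SC library of the lipid run, ND-MDSC had 1.46 times the miR-455-3p and 2.21 times the miR-140-3p. Over the 6 comparisons of untreated cells, miR-455-3p was past 2-fold higher in 2 and lower in 2, and miR-140-3p in 0. With TMM, miR-455-3p was higher in 2 and lower in 1, and miR-140-3p higher in 0 and lower in 1. Run and line change together between ND-MDSC and ED-MDSC and cannot be told apart.

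Obese rat serum was added to 4 of the lines, and the arms of miR-455 were higher with it in the female lines and lower in the male lines. In ZF4-SC, miR-455-3p was 434 without serum, 420 with LZ serum and 639 with OZ serum. In ZL4-SC the levels were 166, 179 and 459 in the same order. In both lines the level with LZ serum was near that of the untreated cells, and the level with OZ serum lay above both.

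The ratio of OZ serum to none was 1.47 in ZF4-SC (1.27 to 1.71), which was within the spread of the duplicates, and 2.76 in ZL4-SC (2.25 to 3.41), which was larger. Past 2-fold were 22.8% of all miRs in ZF4-SC and 20.7% in ZL4-SC. Of the 158 miRs in ZF4-SC, 6 were higher and 30 lower (26 and 8 with TMM), and of the 150 in ZL4-SC 26 were higher and 5 lower (6 and 29 with TMM). miR-455-3p was 17th from the highest of 158 miRs in ZF4-SC and 8th of 150 in ZL4-SC. OZ serum set directly against LZ serum gave 1.52 in ZF4-SC (1.31 to 1.77) and 2.56 in ZL4-SC (2.08 to 3.17), with 33.5% and 13.3% of all miRs past 2-fold. LZ serum against none gave 0.966 (0.815 to 1.15) and 1.08 (0.836 to 1.39), with 2.44% and 2.10% past 2-fold. These comparisons share their untreated or LZ serum libraries. Scaling by TMM gave 2.22 for OZ serum in ZF4-SC and 1.71 in ZL4-SC, so both ratios stayed above 1, but ZF4-SC was now past 2-fold and past the TMM spread of 1.95 and ZL4-SC was within both. Which of the female lines exceeded the spread thus depended on the scaling.

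The male lines went the other way. ED-MDSC had 629 reads of miR-455-3p without serum, 112 with LZ serum and 64 with OZ serum, or levels of 1638, 336 and 255. The other 3 libraries of these cells, with albumin, cyclodextrin and cholesterol, stood at 2459, 2580.0 and 2859.9. The 2 libraries with serum therefore lay apart from the 4 without it, which ran from 1638 to 2859.9. ND-MDSC stood at 759.5 without serum and 436 with OZ serum, and no ND-MDSC library with LZ serum was analysed.

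OZ serum against none was 0.156 in ED-MDSC (0.118 to 0.201), or 6.43-fold lower, and LZ serum against none was 0.205 (0.166 to 0.251), or 4.88-fold lower. Both differences were larger than the spread of the duplicates. They stood against wide changes in these cells, since 50.6% of all miRs were past 2-fold with OZ serum and 47.4% with LZ serum, of which 56 were higher and 22 lower of 154 with OZ serum and 52 higher and 22 lower of 156 with LZ serum. With TMM the same miRs split into 28 higher and 29 lower, and 19 higher and 32 lower. miR-455-3p was the 7th from the lowest of 154 miRs with OZ serum and the 9th of 156 with LZ serum. With TMM the ratios were 0.107 and 0.133, larger than the TMM spread as well. The sera did not separate from each other, at 0.759 for OZ against LZ serum (0.549 to 1.04), where 9.38% of all miRs were past 2-fold.

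In ND-MDSC the ratio was 0.573 (0.510 to 0.645), with TMM 0.664, within the spread of the duplicates and beside 15.4% of all miRs past 2-fold, 8 higher and 18 lower of 169 (16 and 11 with TMM). TMM shifted the median miR by 0.59 in ZF4-SC, -0.69 in ZL4-SC, -0.54 in ED-MDSC and 0.21 in ND-MDSC on the log2 scale for OZ serum against none. Over the 10 serum comparisons, miR-455-3p had the mean of 100 reads in 9 and was past 2-fold higher in 2 and lower in 2, counts that TMM left the same although the 2 higher were then of ZF4-SC and not of ZL4-SC. miR-140-3p was past 2-fold in 0 of 10, with and without TMM.

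Blood cell miRs, whose markers include miR-451-5p and miR-486, moved with serum in ED-MDSC, from 4846 without serum to 36203 with LZ and 99609 with OZ serum, and their part in the result was not tested. ED-MDSC with albumin had 19266 of them with miR-455-3p at 2459. In ND-MDSC they were 254 without and 219 with OZ serum, in ZF4-SC 628 and 606, and in ZL4-SC 226 and 579. The named markers did not always move together. For OZ serum against none, miR-486 was at 3.73 (2.98 to 4.72) in ZL4-SC but miR-451-5p at 0.825 (0.513 to 1.32). They were at 0.726 and 1.62 in ND-MDSC, 1.01 and 0.999 in ZF4-SC, and 18.1 and 24.6 in ED-MDSC. Of the female lines, ZL4-SC had the larger ratio of miR-455-3p on reads per total, but not with TMM. The endothelial miRs summed to 3858 in ED-MDSC with OZ serum, the highest of the 23 libraries. In bulk RNA, fewer cells that make a miR and less of it per cell cannot be told apart.

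The 5p arm of miR-455 was on the same side of 1 as the 3p arm with OZ serum in all 4 lines. miR-455-5p was 64.7 without and 80.3 with OZ serum in ZF4-SC, 32.5 and 61.9 in ZL4-SC, 349 and 47.8 in ED-MDSC, and 159 and 70.8 in ND-MDSC. The ratios were 1.24 (0.831 to 1.87), 1.91 (1.15 to 3.24), 0.137 (0.0690 to 0.247) and 0.445 (0.336 to 0.587). With LZ serum ED-MDSC stood at 69.0, a ratio of 0.198 (0.121 to 0.309). The interval in ZF4-SC included 1, and only ND-MDSC had enough reads in both libraries to be counted. The arms come from the same hairpin and are not independent of each other.

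miR-140-3p did not go with miR-455-3p. It was 6070.4 without and 4583 with OZ serum in ZF4-SC, and 9080.5 and 7654 in ZL4-SC. In the male lines it was 13628 without and 23477 with OZ serum in ED-MDSC, and 8275 and 12968 in ND-MDSC. On reads per total it was thus lower with OZ serum in both female lines and higher in both male lines, but in ZF4-SC this direction turned with TMM.

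The ratios of miR-140-3p were 0.755 in ZF4-SC (0.722 to 0.790), 0.843 in ZL4-SC (0.814 to 0.873), 1.72 in ED-MDSC (1.66 to 1.79) and 1.57 in ND-MDSC (1.52 to 1.61). Of these, that in ED-MDSC alone was larger than the spread of the duplicates. From the highest, miR-140-3p was 77th of 158 miRs in ZF4-SC, 117th of 150 in ZL4-SC, 67th of 154 in ED-MDSC and 23rd of 169 in ND-MDSC. The median miR was itself at 0.721, 1.23, 1.54 and 0.877 in the same order. With TMM the ratios of miR-140-3p were 1.14, 0.523, 1.18 and 1.81. Read against the TMM spread of 1.34, ED-MDSC was then within it and ZL4-SC and ND-MDSC were beyond it. LZ serum gave 1.10 in ZF4-SC, 0.957 in ZL4-SC and 1.34 in ED-MDSC, the last of which turned to 0.869 with TMM. miR-140-5p, with 0.699, 0.926, 1.87 and 1.28 for OZ serum, had intervals that included 1 in all 4 lines.

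**Figure D2:**
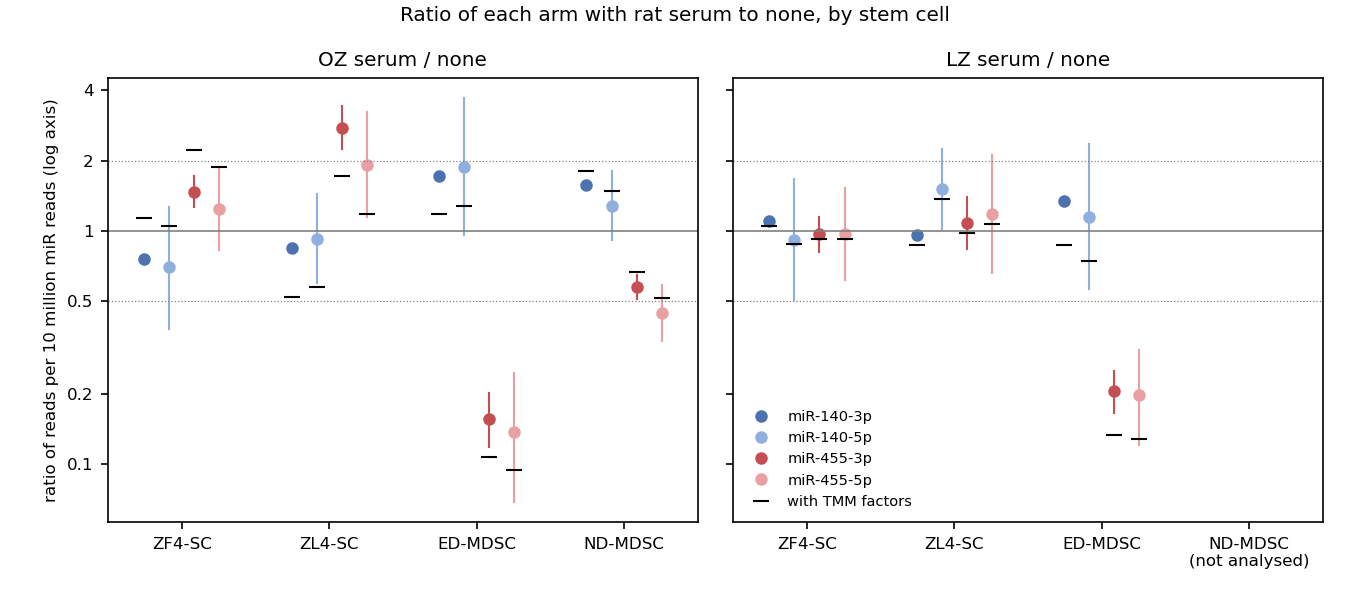
Ratio of each arm with OZ serum (left) or LZ serum (right) to none in the same stem cell, on a log axis, where points are ratios of single libraries, lines their 95% counting intervals and black dashes the ratios with TMM factors. The arms of miR-455 (red) lay above 1 with OZ serum in ZF4-SC and ZL4-SC and below 1 in ED-MDSC and ND-MDSC, and dotted lines mark 2-fold.

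The number of miR-455-3p reads per 1000 miR-140-3p reads of the same library is free of any scaling. It was 71.6 without serum, 62.7 with LZ and 139 with OZ serum in ZF4-SC, and 18.3, 20.6 and 60.0 in ZL4-SC. In ED-MDSC it was 120.2, 18.4 and 10.9, and in ND-MDSC 91.8 without and 33.6 with OZ serum. OZ serum thus stood at 1.95 and 3.28 times the untreated value in the female lines. It was 11.1-fold lower in ED-MDSC and 2.73-fold lower in ND-MDSC. The duplicates differed by 1.94-fold in this measure for untreated ZF4-SC, of different runs, with 139 in the lipid run, and by 1.45-fold for cyclodextrin, so the value in ZF4-SC with OZ serum was that of the other untreated ZF4-SC library.

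**Figure D3:**
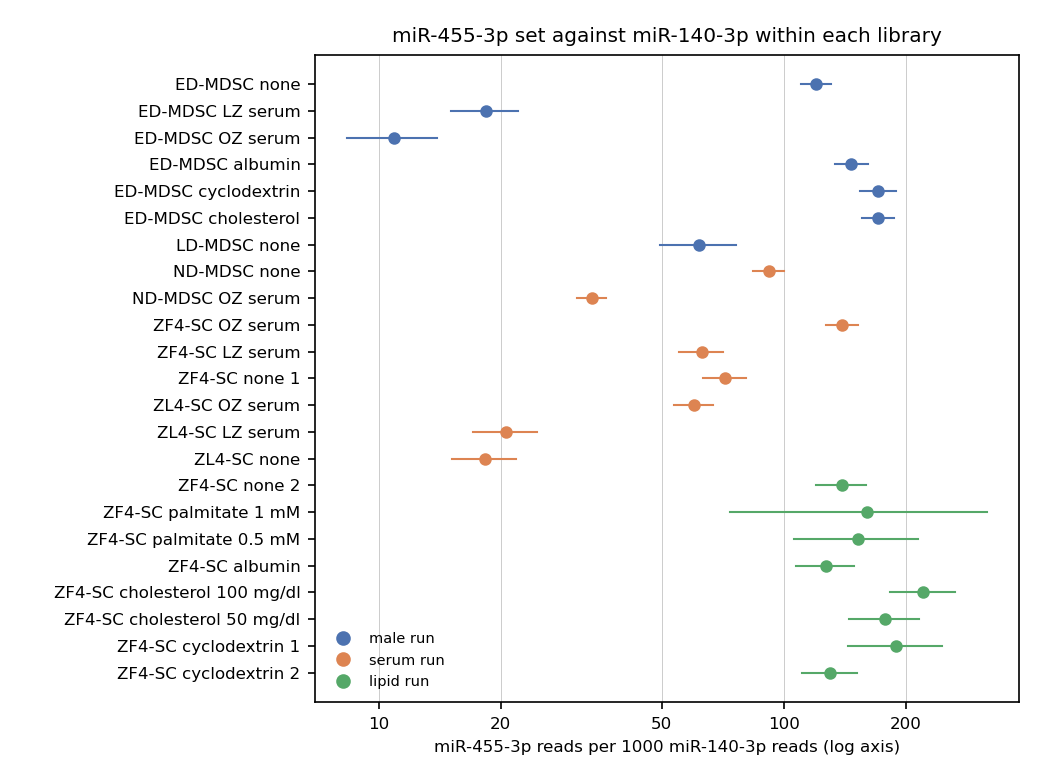
Reads of miR-455-3p per 1000 reads of miR-140-3p in each library, on a log axis, coloured by run, with lines for the 95% counting interval. ED-MDSC with OZ serum was lowest at 10.9 and ZF4-SC with cholesterol at 100 mg/dl highest at 221, and the untreated ZF4-SC of the serum and lipid runs stood apart at 71.6 and 139.

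Lipids and their carriers gave ratios of miR-455-3p between 0.690 and 1.94 where there were enough reads, all nearer to 1 than those of either serum in ED-MDSC. In ZF4-SC, miR-455-3p was 521 without addition and 360 with albumin (0.690, 0.563 to 0.845), where 10.7% of all miRs were past 2-fold. Palmitate stood at 471 for 0.5 mM and 953 for 1 mM, the latter from 10 reads. Against albumin this was 1.31 (0.901 to 1.86) at 0.5 mM, beside 23.6% of all miRs past 2-fold, and 2.65 (1.25 to 4.99) at 1 mM, beside 48.5%, too few reads to be counted. miR-140-3p was 2839 with albumin, 3082 with 0.5 mM and 5910.3 with 1 mM palmitate, the last from 62 reads. Its ratio of 2.08 (1.59 to 2.69) at 1 mM was the only lipid or carrier ratio of miR-140-3p past 2-fold. It was larger than the duplicate spread, and was 1.22 with TMM, within the spread. The blood cell miRs stood at 457221 with 0.5 mM and 101905 with 1 mM palmitate against 3675 with albumin, and their part in these ratios was not tested.

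Cholesterol was set against both cyclodextrin libraries summed. Those libraries themselves held miR-455-3p at 846 and 382, a ratio of 0.451 (0.340 to 0.605), and miR-140-3p at 4465 and 2926, a ratio of 0.655 (0.583 to 0.738). miR-455-3p was 869 with cholesterol at 100 mg/dl and 663 at 50 mg/dl, so the higher dose was next to the upper cyclodextrin library and the lower dose lay between them. The ratios were 1.94 (1.57 to 2.39) and 1.48 (1.18 to 1.85), beside 10.8% and 17.5% of all miRs past 2-fold. Without cyclodextrin replicate 1 they were 2.28 and 1.74. Without cyclodextrin replicate 2 they were 1.03 and 0.784, so that neither dose then stood above the carrier. miR-140-3p gave 1.25 and 1.18 at the higher and lower dose, 1.35 and 1.27 without replicate 1, and 0.883 and 0.835 without replicate 2. Cyclodextrin against no addition gave 0.861 (0.717 to 1.03) for miR-455-3p and 0.840 (0.785 to 0.899) for miR-140-3p, with 19.5% of all miRs past 2-fold. These ratios were 0.732 and 0.781 without cyclodextrin replicate 1, and 1.62 and 1.19 without replicate 2. The blood cell miRs were 52788 and 3270.3 in the cyclodextrin libraries, 9115 at the higher and 108626 at the lower dose.

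In ED-MDSC the carriers alone stood above the untreated library in miR-455-3p. Albumin gave 1.50 times (1.33 to 1.69) and cyclodextrin 1.58 times (1.39 to 1.78), where 4.93% and 2.16% of all miRs were past 2-fold. Cholesterol against cyclodextrin gave 1.11 (0.978 to 1.26), and 0% of all miRs were past 2-fold. For miR-140-3p the 3 ratios were 1.22, 1.11 and 1.11. All of these were within the spread of the duplicates, which were of ZF4-SC, since ED-MDSC had none. Of the lipid and carrier comparisons, 8 could be counted for miR-455-3p and 0 were past 2-fold, and 9 for miR-140-3p, with 1 past it.

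The balance of the arms differed between the hairpins. For miR-140 the 3p arm made up 97.6% to 100.0% of the reads of both arms in the 23 libraries, 99.4% when pooled. For miR-455 the 3p arm led as well, with 86.4% pooled, and the 5p arm held 13.6%. Among 107 hairpins with both arms listed and a mean of 100 reads, 44 had more than 50% in the 3p arm, 23 had a 3p share at least that of miR-140, and 37 at least that of miR-455. For miR-140 the dominance of the 3p arm held in all 5 stem cells, at 99.1% to 99.6% pooled.

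Male run libraries had a 5p share of miR-455 of 14.4% to 21.8%, and serum run libraries one of 11.2% to 17.6%, with and without serum. It was 17.6% in untreated ED-MDSC (15.0 to 20.4, Wilson interval) and 15.8% with OZ serum (9.27 to 25.6), where both arms together stood at 1987 and 303 per 10000000 miR reads. A difference in the share of the arms with serum was not detectable in ED-MDSC at this depth.

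In the lipid run the 5p arm was nearly missing from some libraries. Untreated ZF4-SC had 42 of 324 reads in the 5p arm in the serum run, 13.0% (9.74 to 17.1), and 2 of 231 in the lipid run, 0.866% (0.238 to 3.10). The 5p arm had 0 of 144 reads with cholesterol at 100 mg/dl, which allows a share of up to 2.08%, 0 of 119 at 50 mg/dl (up to 2.52%), 0 of 68 in cyclodextrin replicate 1 (up to 4.41%) and 0 of 10 with palmitate at 1 mM (up to 30.0%). With albumin it was 8.51% (5.31 to 13.4), in cyclodextrin replicate 2 9.45% (6.14 to 14.3) and with palmitate at 0.5 mM 7.14% (2.46 to 19.0). Libraries near 0 and libraries near 9% therefore stood in the same run, and the duplicated cyclodextrin was on both sides.

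Other hairpins did not lose their minor arm alike between the untreated ZF4-SC libraries. Of 53 hairpins with enough reads, the ratio of the minor-arm share in the lipid run to that in the serum run had a median of 1.02, it was below 1 in 25 and at most 0.5 in 11, and miR-455 was lowest at 0.0668. miR-455-5p itself was 64.7 and 4.55 in these libraries, a ratio of 0.0703 (0.00825 to 0.270), while miR-455-3p was at 1.20 (1.00 to 1.43). The low counts of miR-455-5p in part of the lipid run enter any measure of this arm taken over all 23 libraries.

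**Figure D4:**
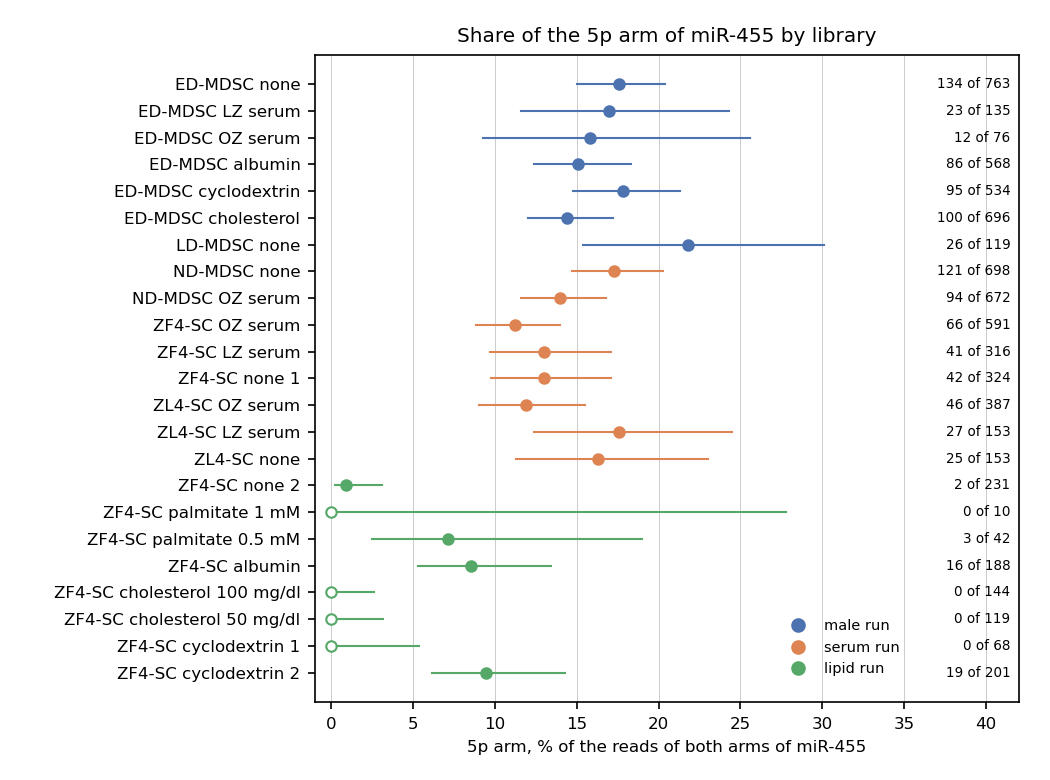
Share of the 5p arm among the reads of both arms of miR-455 in each library, in percent, with 95% Wilson intervals and the reads behind each share at the right. Open circles are libraries with 0 reads of the 5p arm. The 15 libraries of the male and serum runs lay between 11.2% and 21.8%, and the 8 of the lipid run between 0 and 9.45%.

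The miRs most like each arm over the 23 libraries were found by Spearman correlation of log2 levels. This is a description, since libraries of a run may share their preparation, which was not stated. For miR-140-3p they were miR-20a-5p (0.96), miR-101b-3p (0.92), miR-93-5p (0.91), miR-103-3p (0.90) and miR-106b-3p (0.89). miR-20a-5p, miR-93-5p and miR-106b-3p are of the miR-17/92 and miR-106b/25 clusters, which are linked to proliferation. Centred on the mean of each run, these correlations were 0.28 to 0.60 and 1 of the 5 miRs stayed among the nearest 5. For miR-140-5p they were miR-196a-5p (0.65), miR-17-5p (0.63), the joined entry let-7c-2-3p and let-7a-1-3p (0.62), its own partner miR-140-3p (0.61) and miR-16-5p (0.59).

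For miR-455-3p the nearest were miR-204-5p (0.72), known from bone and fat lineage choice, miR-146b-5p (0.65), miR-212-5p (0.64), which is induced by CREB together with miR-132, miR-361-5p (0.63) and miR-125b-1-3p (0.62). Centred on run, miR-212-5p was nearest at 0.82 and 2 of the 5 stayed. For miR-455-5p they were miR-31a-5p (0.88), miR-872-3p (0.80), miR-30e-5p (0.78), miR-452-5p (0.78) and miR-196a-5p (0.76), and centred on run 0 of the 5 stayed. Over the 15 libraries outside the lipid run, where the 5p arm was not near 0, its partner miR-455-3p was nearest to it at 0.94, and 2 of the 5 stayed, miR-31a-5p at 0.87 and miR-196a-5p at 0.78. Over all libraries the arms of miR-455 correlated at 0.47 with each other, 0.59 within runs, and those of miR-140 at 0.61 and 0.66. miR-140-3p and miR-455-3p stood at 0.07 over all libraries and 0.02 within runs.

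A list of other miRs linked to cartilage had 20 entries, 18 of them above 0, and a list linked to brown fat had 16, with 13 above 0. With OZ serum in ED-MDSC, 5 of 13 countable cartilage-linked miRs were past 2-fold higher and 3 lower, together 61.5% beside 50.6% of all miRs, with a median ratio of 1.21 beside 1.54 over all miRs. In ZF4-SC 0 were higher and 1 lower of 10, beside 22.8% of all miRs (median 0.612, all miRs 0.721). In ZL4-SC 0 and 0 of 12 were, beside 20.7% (1.13, all 1.23), and in ND-MDSC 0 and 3 of 13, or 23.1% beside 15.4% (0.763, all 0.877). In LD-MDSC against ED-MDSC, 0 were higher and 6 lower of 11, or 54.5% beside 36.8% of all miRs (13 higher and 36 lower of 133), with a median of 0.485 beside 0.740 over all miRs. miR-455-3p in both female lines with OZ serum thus stood above a list whose median was below that of all miRs.

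The 3 cartilage-linked miRs with most reads went different ways. miR-148a-3p was at 0.416 with OZ serum in ED-MDSC and 0.472 in LD-MDSC against ED-MDSC, on the same side as miR-455-3p, but at 0.282 in ZF4-SC and 0.692 in ZL4-SC with OZ serum, on the other. miR-145-5p, which represses Sox9, was at 0.763 in both ED-MDSC and ND-MDSC, 0.620 in ZF4-SC and 0.701 in ZL4-SC. miR-27b-3p, which restrains fat cell formation and was on both lists, was at 3.53 in ED-MDSC, 1.52 in ZL4-SC, 0.604 in ZF4-SC and 0.363 in ND-MDSC.

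Of the brown fat-linked miRs, 3 were higher and 0 lower of 10 with OZ serum in ED-MDSC, or 30.0% beside 50.6% of all miRs (median 1.41, all miRs 1.54). In ZF4-SC 0 and 1 of 8 were, 12.5% beside 22.8% (0.806, all 0.721). In ZL4-SC 1 was higher and 0 lower of 9, 11.1% beside 20.7% (1.09, all 1.23), and in ND-MDSC 1 and 1 of 11, 18.2% beside 15.4% (0.801, all 0.877). miR-182 was at 5.34 with OZ serum in ED-MDSC, 2.24 in ZL4-SC, 0.717 in ZF4-SC and 0.713 in ND-MDSC. miR-365-3p, which with miR-193b is known from brown fat of the mouse, was at 0.866, 0.803, 0.713 and 0.996 in the same order, under 2-fold in each. The opposite directions of miR-455-3p in female and male lines were matched by none of the 5 miRs named from these lists. Those 5 were named for their reads alone. The other list members and all miRs were not compared for this split, so it is not shown to be particular to miR-455-3p.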

How the data were processed

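Norgen Biotek prepared and sequenced 23 small RNA libraries of rat MDSC, grouped here by name into 3 runs of 7, 8 and 8. The authors had the reads matched to miRBase Release 18.0. Deposited were unscaled counts of reads for each entry, with 152 of 792 entries at 0 everywhere. The aligner and the treatment of reads that match several miRs are not given in the sources used here. Labels and methods differ on the muscle of the male cells and on the RNA kit, and samples were grouped by the labels.

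Counts were scaled to 10000000 miR reads. Ratios of single libraries, in 26 comparisons, had exact conditional 95% intervals, and shares Wilson intervals, from scipy 1.17.1. Intervals cover counting error only, and a count of 0 was given a limit of 3 reads. Interval coverage was checked on simulated counts. Background shares were the miRs with a ratio of at least 2 or at most 0.5 among those averaging 100 reads or more in the libraries compared. Scaling by TMM (edgeR 4.0.16), median-of-ratios size factors (DESeq2 1.42.0) and no rescaling were alternatives. Likeness used a pseudocount of 1 read and the 153 miRs averaging 100 reads or more over all libraries. The text names the members, the 5 miRs most like each, and the 3 members of the cartilage-linked and brown fat-linked lists with most reads. Striated muscle, blood cell, endothelial and epithelial lists were summed per library. Members and lists were chosen with earlier results of these data known. Sequences are from RefSeq, GRCr8.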

Additional observations from a re-analysis of the deposited data

Results flagged for a closer look

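The ratio of OZ serum to none lay on opposite sides of 1 in the female and the male lines for each of the 4 arms. For miR-455-3p it was 1.47 in ZF4-SC and 2.76 in ZL4-SC, but 0.156 in ED-MDSC and 0.573 in ND-MDSC, and for miR-455-5p 1.24, 1.91, 0.137 and 0.445 in the same order. For miR-140-3p it was 0.755 and 0.843 in the female and 1.72 and 1.57 in the male lines, and for miR-140-5p 0.699, 0.926, 1.87 and 1.28. Each line had 1 library with OZ serum and 1 without, so the difference was not tested. The share of all miRs that split in this way is not given here, so how common the split was cannot be read from these arms. Arms of the same hairpin are also not independent of each other. The intervals of miR-140-5p included 1 in every line, as did that of miR-455-5p in ZF4-SC. Of the 3p arms on reads per total, miR-455-3p lay beyond the spread of the duplicates in ZL4-SC and ED-MDSC only. For miR-140-3p this held in ED-MDSC only. With TMM the value of miR-140-3p in ZF4-SC turned to 1.14 and that of miR-140-5p to 1.05, and no longer opposed those of the male lines, while both arms of miR-455 stayed opposed.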

How the results depend on the processing

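Under TMM and median-of-ratios no ratio of miR-455-3p or miR-140-3p past 2-fold changed direction. With no rescaling 3 of them did. Palmitate at 1 mM against albumin, in the library of 104902 reads, turned from 2.65 to 0.0581 in miR-455-3p and from 2.08 to 0.0457 in miR-140-3p, and the ratio of the cyclodextrin libraries turned from 0.451 to 2.68 in miR-455-3p. With TMM, median-of-ratios and no rescaling, miR-455-3p with OZ serum was 2.22, 1.79 and 1.86 in ZF4-SC, 0.107, 0.116 and 0.102 in ED-MDSC, and 0.664, 0.666 and 1.00 in ND-MDSC. In ZL4-SC it was 1.71 and 2.02 with TMM and median-of-ratios, and with LZ serum in ED-MDSC 0.133 and 0.143. miR-140-3p with OZ serum was 1.14, 0.919 and 0.956 in ZF4-SC, 0.523, 0.616 and 0.813 in ZL4-SC, 1.18, 1.28 and 1.13 in ED-MDSC, and 1.81, 1.82 and 2.74 in ND-MDSC. miR-455-3p in LD-MDSC against ED-MDSC was 0.388 with median-of-ratios and 0.148 with no rescaling, and in ZF4-SC against ZL4-SC 1.26 with TMM and 1.55 with median-of-ratios. With no rescaling it was 1.15 and 0.952 for cholesterol at 100 and 50 mg/dl.

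Leaving out either cyclodextrin library put miR-455-3p at 1.03 to 2.28 for cholesterol at 100 mg/dl and at 0.784 to 1.74 at 50 mg/dl. With TMM, 22 of 26 ratios of miR-140-3p and 15 of 26 of miR-455-3p moved beyond their counting intervals, and with median-of-ratios 24 and 11. The likeness of miR-455-5p outside the lipid run and the ratio of the 3p arms within a library were chosen after seeing the data. The percent of all miRs past 2-fold with OZ serum stayed within 1.5 times under TMM and a mean of at least 10 reads, as did the arm shares pooled by stem cell. Pairing by replicate was not possible, because the labels give no replicate numbers and single libraries were compared. OZ and LZ serum were compared within each line that had both, and these pairs were not combined across lines. At 0 to 116 reads per library miR-140-5p, and at 0 to 19 reads miR-455-5p in the lipid run, gave no ratio with a narrow interval.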
